A study of Mus musculus with 63 samples.

Results

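The genes described here are 10 transcriptional regulators of mitochondrial and fatty acid metabolism in the mouse heart: the coactivators Ppargc1a and Ppargc1b, the estrogen-related receptors Esrra, Esrrb and Esrrg, the fatty acid receptors Ppara and Ppard, the retinoid X receptors Rxra and Rxrg, and Tfam. They were taken by gene symbol from a table of 19220 genes, and all 10 were found and tested. Heart RNA was sequenced from the 8 strains that founded the Diversity Outbred mouse population, labelled WSB, PWK, NZO, NOD, Cast, B6, AJ and 129. Each strain had 8 libraries and Cast had 7, and all 63 came from mice on the same high-fat, high-sugar diet, with 45% of it fat. There was no group on another diet, and the labels read here give no sex, age or time of day. Apart from identifiers in the sample titles, no label says that the libraries of a strain are separate animals, so the p-values measure the spread between these libraries. Values are given as CPM, counts scaled to the same library size.

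PGC-1 proteins, the products of Ppargc1a and Ppargc1b, carry no DNA-binding domain and are recruited by nuclear receptors. In heart muscle their main partners are the estrogen-related receptors (ERR), orphan receptors that drive genes of the respiratory chain and the citrate cycle, and the peroxisome proliferator-activated receptors (PPAR), fatty acid sensors that drive genes of lipid uptake and oxidation. PPARs bind DNA as pairs with a retinoid X receptor (RXR). Tfam, a classic downstream gene of this network, packages mitochondrial DNA and starts its transcription.

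Markers of heart muscle fitted the labelled tissue: 9 of 9 cardiomyocyte markers were expressed, with a summed level of 40394 to 75320 CPM per library. Total counts ran from 21.8 to 42.9 M per library, and no regulator had fewer than 195 counts in any library. One library, replicate 1 of WSB (WSB_1), stood apart. In it 27.5% of tested genes lay more than 1 log2 unit from the level of their strain, against at most 8.26% in any of the other 62 libraries. The longest genes (by 4 equal classes of length) were at a median log2 difference of -0.29 from the other WSB libraries, and the shortest at 0.53. Of the 10 regulators, 9 were low in it, with Esrrg at 7.78 CPM against 53.4 to 68.7 CPM in the other 7 WSB libraries. Many results that rest on WSB_1 are given with and without it. Spans of strain means and counts of cell markers are given only with it.

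Measured per kilobase of exon, which allows genes to be set side by side, Ppargc1a had the highest level at 20.1 CPM per kb. Esrra (16.4 CPM per kb), Rxrg (16.0), Rxra (13.3 CPM per kb) and Ppara (11.8 CPM per kb) followed. Esrrg stood at 9.60 CPM per kb, Tfam at 8.55, Ppargc1b at 6.81, Esrrb at 5.40 (CPM per kb) and Ppard at 3.45 CPM per kb. Exon lengths were those of the merged exons in the annotation, so a heart transcript that uses fewer exons is understated. Esrra exons overlap those of Trmt112 on the other strand, and the use of strand in counting is not given in the sources used here, so its reads cannot be fully told apart from those of Trmt112. No other regulator overlapped a tested gene, and none had a tested near-identical copy.

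**Figure D1:**
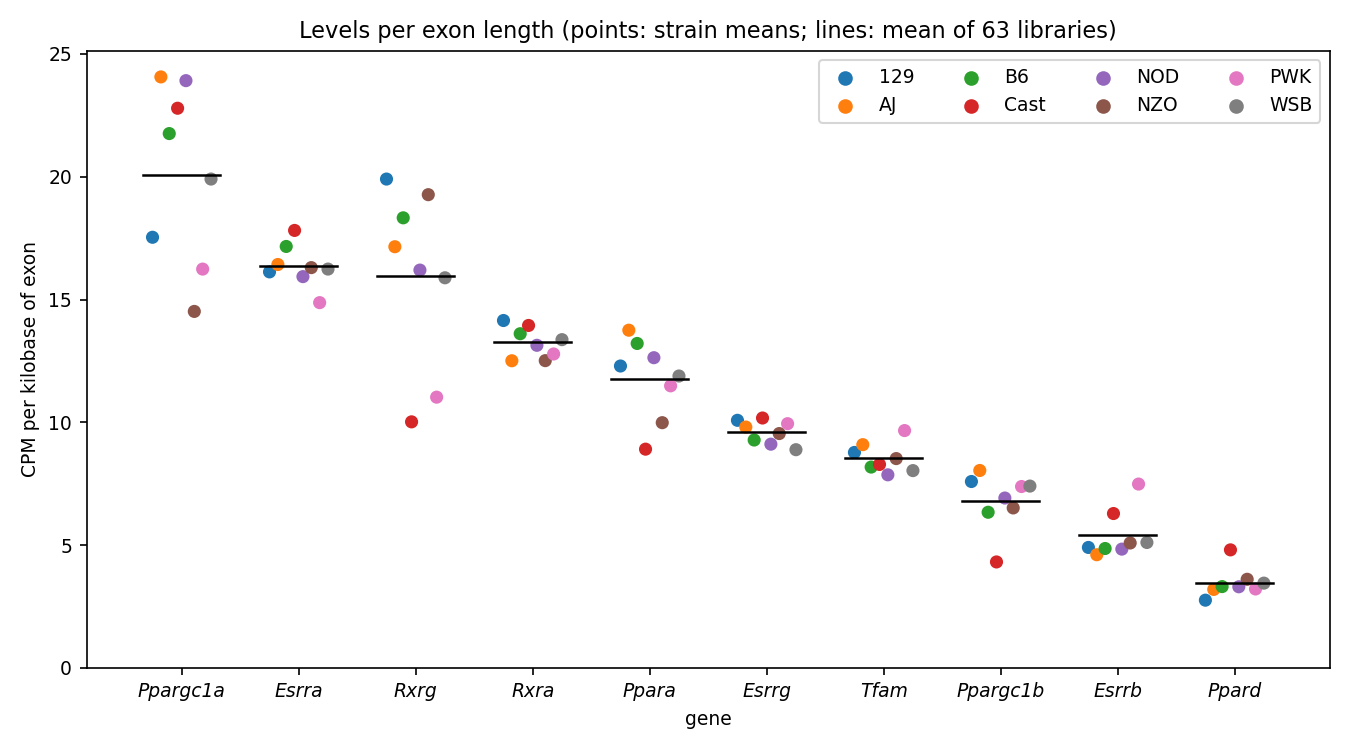
Mean level of each of the 10 regulators per kilobase of merged exon (y axis, CPM per kb), with 1 point per strain and a line at the mean of the 63 libraries. Ppargc1a is highest at 20.1 CPM per kb and Ppard lowest at 3.45 CPM per kb, and the strain means of Rxrg spread between 10.02 and 19.9 CPM per kb.

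Strain background was associated with the level of most of these genes. In a test over all 8 strains, 8 of the 10 regulators passed an adjusted p of 0.05, at a background of 90.3% of all tested genes (edgeR's quasi-likelihood test, Benjamini-Hochberg over 16425 genes). Rxra (adjusted p = 0.135) and Esrrg (adjusted p = 0.89) did not pass. Without WSB_1 Rxra passed as well (edgeR adjusted p = 0.00234), so that 9 of 10 passed at a background of 93.1%. The strain means of the regulators spanned a median of 0.67 log2 units, against 0.78 for all tested genes, and the adjusted R squared of strain had a median of 0.28, against 0.44 for all tested genes. The widest spans were those of Rxrg (1.01 log2 units), Ppargc1b (0.96) and Ppard (0.81 log2 units), and the narrowest was that of Rxra (0.18 log2 units). These spans and medians include WSB_1, in which 9 of the 10 regulators were low, and were not computed without it. Whether the lower R squared of the regulators rests on WSB_1 was not tested.

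**Figure D2:**
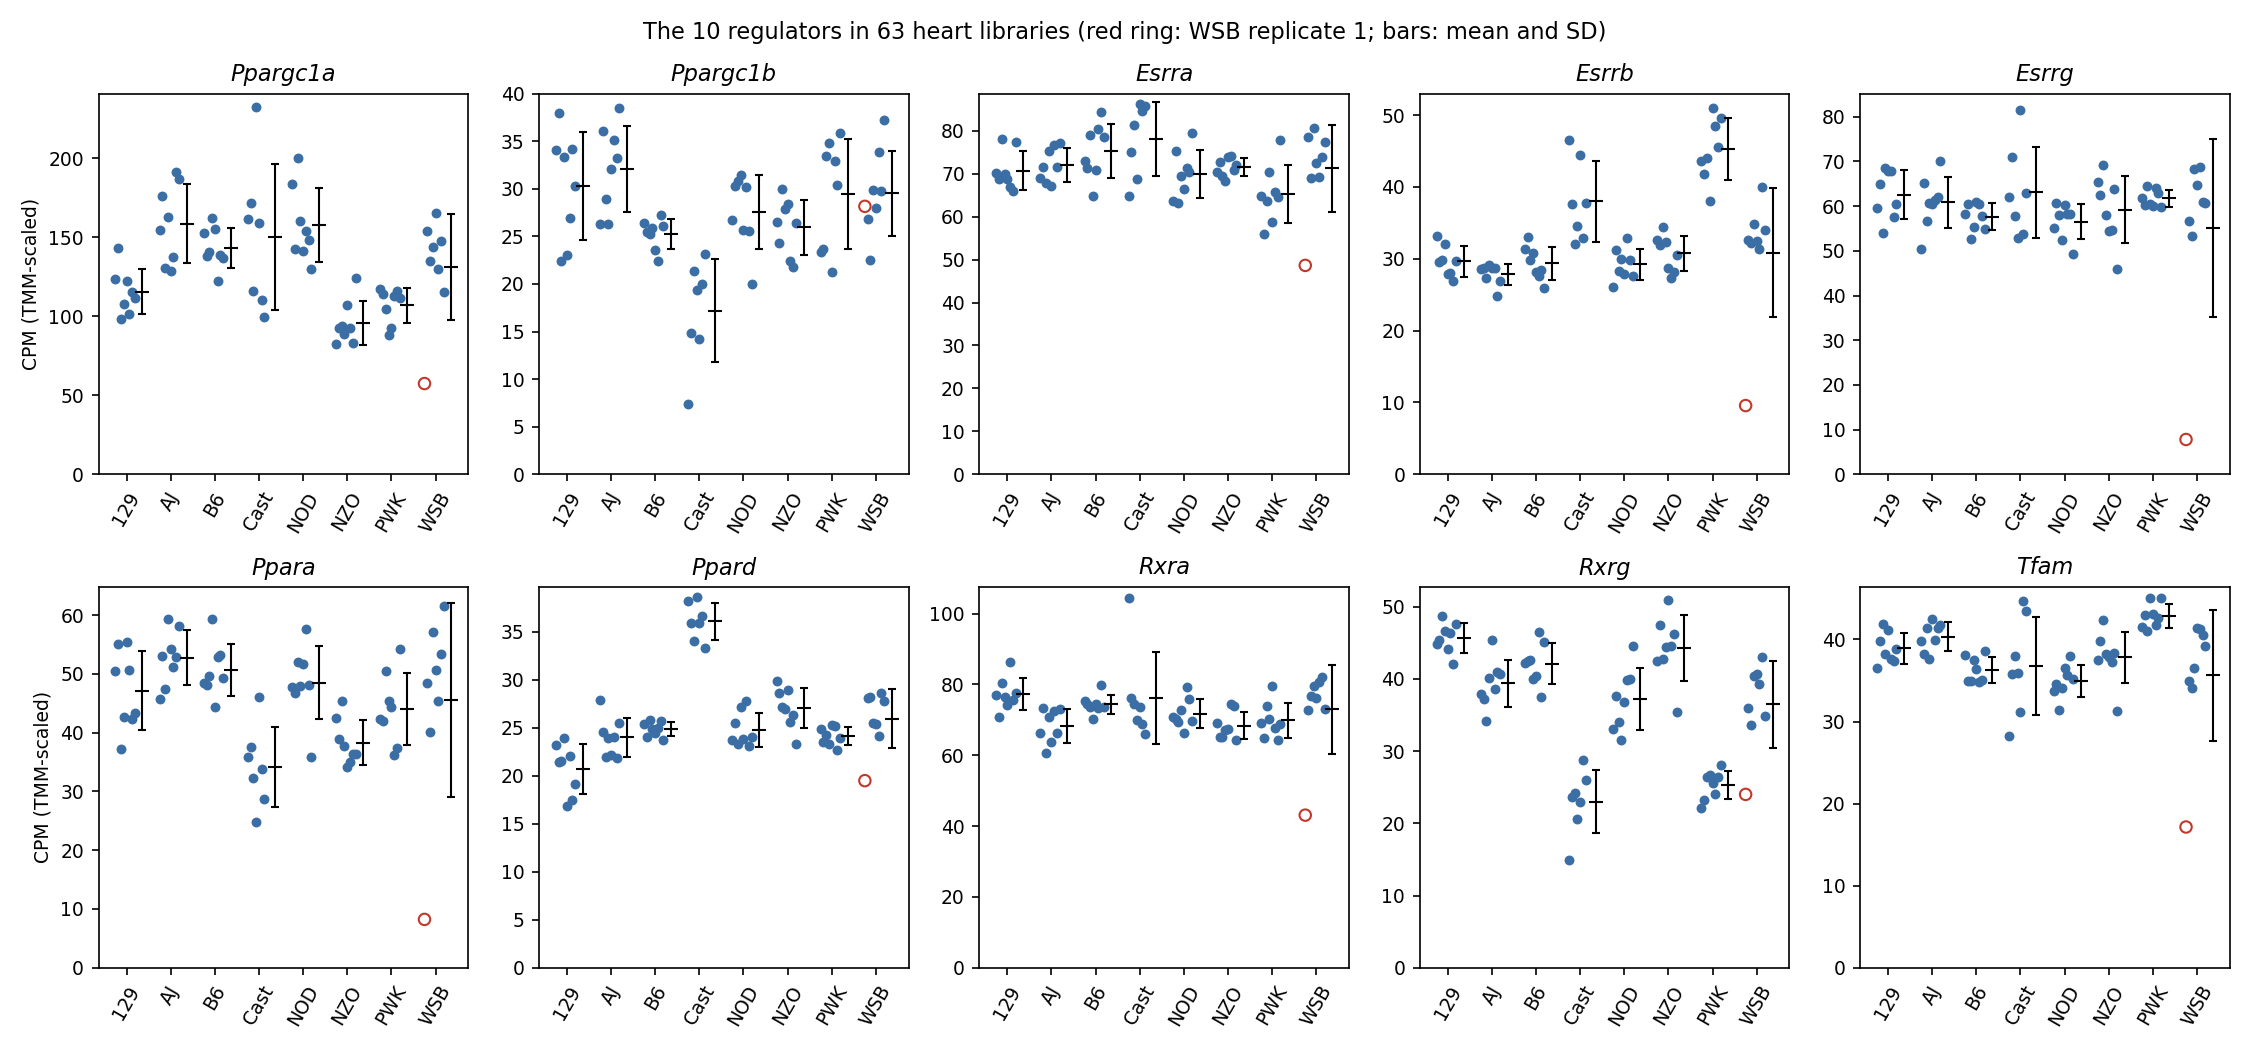
CPM of each regulator (y axis, linear and from 0) in each of the 63 libraries, by strain, with the mean and SD as bars and WSB_1 as a red ring. The 7 Cast libraries of Ppard, at 33.3 to 38.6 CPM, lie above every other library, and WSB_1 is the lowest library of its strain in 9 of the 10 panels.

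Each strain was then compared with the unweighted mean of the other 7. Cast differed most often, with 4 regulators higher and 3 lower, and PWK had 2 higher and 3 lower. AJ had 3 higher and 1 lower, 129 and NZO each had 1 higher and 1 lower, B6 and NOD each had 1 higher, and WSB had none in either direction, nor any at an unadjusted p of 0.05 (edgeR) or in DESeq2 or limma. The shares of all tested genes called higher and lower were 30.9% and 29.3% in Cast, 27.4% and 26.8% in PWK, and 21.1% and 18.1% in AJ. They were 16.8% and 14.1% in 129, 22.5% and 18.6% in NZO, 17.5% and 14.3% in B6, 19.8% and 13.9% in NOD, and 25.6% and 19.8% in WSB. With 10 genes, a count of 0 to 4 is read only gene by gene. The 8 comparisons share their libraries and are not independent of each other.

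**Figure D3:**
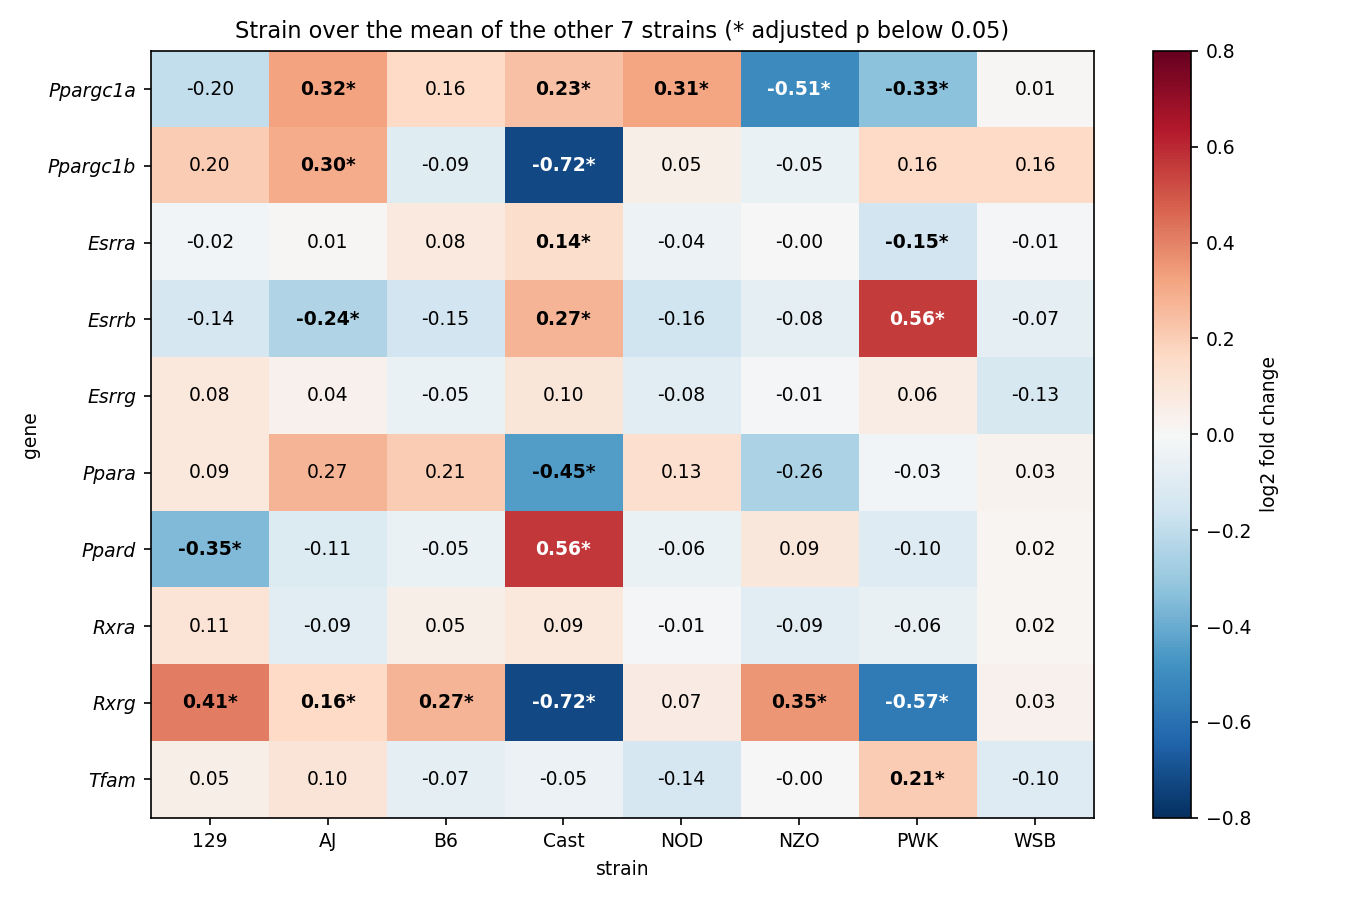
Log2 fold change of each regulator (rows) in each strain (columns) over the mean of the other 7, coloured from blue (lower) to red (higher). Asterisks and bold type mark an adjusted p below 0.05, and the lowest values are those of Rxrg and Ppargc1b in Cast, both at -0.72.

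The coactivators moved differently across the strains. Ppargc1a, which encodes PGC-1 alpha, the inducible coactivator of mitochondrial biogenesis, was lowest in NZO, with a lowest, median and highest library of 82.8, 92.7 and 124 CPM. In AJ these were 129, 159 and 192 CPM, and in NOD 130, 151 and 200 CPM. Every NZO library was below every AJ and NOD library. PWK (88.2, 112 and 117 CPM) and 129 (98.4, 114 and 143 CPM) were between them, B6 had 122, 140 and 163 CPM, Cast 99.8, 159 and 232 CPM, and WSB 57.4, 140 and 166 CPM. The widest spread within a strain was thus in Cast and, through WSB_1, in WSB.

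Ppargc1a fell by 0.51 ± 0.10 (log2, SE) in NZO, at 95.7 ± 13.9 CPM (SD, n = 8) against 138 CPM for the mean of the other strains (edgeR adjusted p = 4.12e-05). It also fell in PWK by 0.33 ± 0.10 (edgeR adjusted p = 0.00487), and both calls held in all 74 alternative analyses. It rose in AJ by 0.32 ± 0.10 (edgeR adjusted p = 0.00486) and in NOD by 0.31 ± 0.10 (edgeR adjusted p = 0.0076), a call lost against B6 alone (0.14, edgeR adjusted p = 0.496). Neighbouring strains in the order AJ, NOD, Cast, B6, WSB, 129, PWK, NZO did not differ by more than the larger of their SDs.

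The rise in AJ varied with the libraries kept. AJ_2, AJ_7 and AJ_8 had 176, 192 and 187 CPM, against 129 to 163 CPM in the other 5. They are the 3 highest of the strain, so a smaller difference without them follows from their choice; it was 0.17 (edgeR adjusted p = 0.306). The call was also lost against B6 alone (0.15, edgeR adjusted p = 0.435), and it held with any 1 library left out. The same 3 libraries had the lowest mean log2 level of 10 fat cell markers in the strain. It was 0.51, 1.44 and 1.19 in them, against 1.91 to 3.29 in the other 5. Adipoq, an adipocyte hormone, was at 0.77, 1.64 and 1.80 CPM in them and at 3.84 to 10.7 CPM in the other 5 AJ libraries. The summed level of the 10 did not set all of them apart, at 329, 388 and 361 CPM against 334 to 407 CPM in the other 5. Of the 10, 3 were higher and 1 lower in AJ than in the other strains, beside 21.1% and 18.1% of all genes. The part of fat cells in the AJ values was not tested. In bulk tissue, fewer cells of a type and less RNA per cell cannot be told apart.

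In Cast Ppargc1a passed the test at 0.23 ± 0.10 (log2, edgeR adjusted p = 0.0428), but the call was not stable. Cast_5 had 232 CPM, Cast_2, Cast_1 and Cast_6 had 172, 162 and 159, and Cast_3, Cast_7 and Cast_8 had 116, 111 and 99.8 CPM. The call was lost without Cast_1, Cast_2, Cast_5 or Cast_6, and without Cast_1, Cast_5 and Cast_6 together the difference was -0.04 (edgeR adjusted p = 0.833). Those 3 libraries had summed fibroblast markers of 464 to 534 CPM, against 762 to 884 CPM in the other 4 Cast libraries, and the part of this in the result was not tested.

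The promoter of Ppargc1a is shown because its response to hormonal signals through cAMP is well known. The window surrounds the RefSeq start (GRCm38.p6, chr5:51567676-51567975, minus strand), with the capitals marking ACGTCA, the half-site TGACGT of a cAMP response element read on the opposite strand.
Ppargc1a: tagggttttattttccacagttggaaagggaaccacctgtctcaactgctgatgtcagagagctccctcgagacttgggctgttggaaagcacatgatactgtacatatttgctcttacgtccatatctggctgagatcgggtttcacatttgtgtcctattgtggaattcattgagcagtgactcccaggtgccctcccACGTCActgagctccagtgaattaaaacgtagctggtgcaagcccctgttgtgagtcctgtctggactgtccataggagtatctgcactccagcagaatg
The match starts at position -50 from the start site. The half-site was found on either strand in 7.51% of 32851 promoter windows of the same length.

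Ppargc1b encodes PGC-1 beta, the coactivator linked to steady mitochondrial content. It had a lowest, median and highest library of 7.41, 19.4 and 23.1 CPM in Cast, against 26.3, 32.7 and 38.5 CPM in AJ. The other 6 strains had medians of 25.6 to 31.8 CPM, with a lowest library of 19.999 CPM. The Cast libraries overlapped those of other strains only between 19.999 and 23.1 CPM, and lay below all those of AJ. Ppargc1b fell by 0.72 ± 0.11 (log2, SE) in Cast, at 17.2 ± 5.40 CPM (SD, n = 7) against 28.6 CPM for the mean of the other strains (edgeR adjusted p = 7.89e-08). The fall held in all 73 alternatives, at -0.81 to -0.52. It was the lone step between neighbouring strains, from B6 to Cast, that exceeded the larger SD. In AJ Ppargc1b rose by 0.30 ± 0.09 (log2, edgeR adjusted p = 0.00904). This call was lost without AJ_2, AJ_7 and AJ_8 (edgeR adjusted p = 0.249) and with Cast left out of the other strains (edgeR adjusted p = 0.102).

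Among the ERR genes Esrrb stood out. The gene lies at chr12:86361117-86521628 (GRCm38, plus strand). Its product, ERR beta, is best known from stem cells and placenta, and it had the lowest level per kb of the 3 ERRs. Libraries of PWK had 38.1, 44.8 and 50.9 CPM (lowest, median and highest) and those of Cast 32.1, 37.6 and 46.6 CPM, against medians of 28.6 to 32.5 CPM in the other 6 strains. The lowest PWK library was above every library of 129, AJ, B6, NOD and NZO, the highest of which had 34.4 CPM. Esrrb rose in PWK by 0.56 ± 0.08 (log2, SE; edgeR adjusted p = 1.68e-08), a call that held in all 74 alternatives. In Cast it rose by 0.27 ± 0.09 (edgeR adjusted p = 0.00604), a call lost without Cast_1, Cast_5 and Cast_6 (0.16, edgeR adjusted p = 0.267). In AJ it fell by 0.24 ± 0.09 (edgeR adjusted p = 0.0227), which was lost without AJ_7 (edgeR adjusted p = 0.0577), and again without AJ_2, AJ_7 and AJ_8 together (edgeR adjusted p = 0.147), with Cast left out of the other strains (edgeR adjusted p = 0.0592) and against B6 alone (-0.08, edgeR adjusted p = 0.655). Without WSB_1 Esrrb was also called lower in 129 (-0.16, edgeR adjusted p = 0.00843), B6 (-0.17, edgeR adjusted p = 0.00374) and NOD (-0.18, edgeR adjusted p = 0.00195).

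Esrra, which encodes ERR alpha, the partner of PGC-1 alpha at respiratory chain genes, lies at chr19:6910977-6921813 (GRCm38, minus strand) and varied little. Strain means lay between 65.2 ± 6.72 CPM in PWK and 78.1 ± 8.65 CPM in Cast (SD, n = 8 and n = 7). It fell by 0.155 ± 0.05 (log2, SE) in PWK (edgeR adjusted p = 0.00844) and rose by 0.14 ± 0.05 in Cast (edgeR adjusted p = 0.0173). The libraries of both strains overlapped those of the others. The test over all strains (edgeR adjusted p = 0.0301) was lost when any 1 of Cast_3, Cast_6, Cast_7, Cast_8, PWK_2 or PWK_5 was left out (edgeR adjusted p = 0.0535 to 0.0763). The rise in Cast was lost without Cast_6, Cast_7 or Cast_8 (edgeR adjusted p = 0.06 to 0.0722) and against B6 alone (0.05, edgeR adjusted p = 0.53), and the fall in PWK was never lost.

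Esrrg encodes ERR gamma, the receptor that turns on oxidative metabolism in the newborn heart. Its strain means were 55.2 ± 19.9 CPM in WSB, and 56.5 to 63.2 CPM in the other 7 strains. No strain differed from the others (edgeR adjusted p = 0.4 to 0.966), and leaving out WSB_1 did not bring the test over all strains past the threshold (edgeR adjusted p = 0.22). Esrrg is shown with its most upstream window (RefSeq, GRCm38.p6, chr1:187608756-187609055, plus strand), since it moved with Ppara among libraries of a strain. The capitals mark CTA and TAG with any 4 bases between them, the core of the site of the muscle factor MEF2, which also holds a TATA box (TATAAA) on the opposite strand.
Esrrg: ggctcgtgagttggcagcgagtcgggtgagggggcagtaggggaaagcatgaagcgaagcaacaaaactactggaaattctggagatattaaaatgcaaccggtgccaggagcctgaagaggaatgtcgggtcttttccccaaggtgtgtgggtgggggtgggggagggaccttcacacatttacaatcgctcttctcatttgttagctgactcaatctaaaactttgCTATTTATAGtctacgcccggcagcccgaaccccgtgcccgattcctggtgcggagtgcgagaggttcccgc
The match starts at position -22. The MEF2 core was found in 3.69% of the 32851 windows, and TATAAA in 13.6%, each on either strand.

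Of the PPAR genes, Ppard gave the clearest strain difference. The gene lies at chr17:28232754-28301469 (GRCm38, plus strand), and its product, PPAR delta, is a fatty acid receptor active throughout muscle. The 7 Cast libraries had 33.3, 35.95 and 38.6 CPM (lowest, median and highest), against 23.3, 27.0 and 29.8 CPM in NZO, the next strain in order. Libraries of 129 had 16.8, 21.5 and 24.0 CPM. All Cast libraries were above all 56 others. Ppard rose by 0.56 ± 0.05 (log2, SE) in Cast, at 36.1 ± 1.94 CPM (SD, n = 7) against 24.5 CPM for the mean of the other strains (edgeR adjusted p = 2.03e-16), and fell by 0.35 ± 0.05 in 129 (edgeR adjusted p = 2.17e-08). Both calls held in every alternative, at 0.48 to 0.58 in Cast and -0.38 to -0.26 in 129. The steps from Cast to NZO and from AJ to 129 exceeded the larger SD, and no other step between neighbouring strains did.

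Ppara encodes PPAR alpha, the main fatty acid receptor of the heart. Cast libraries had 24.7, 33.8 and 46.1 CPM and NZO libraries 34.1, 37.0 and 45.4 CPM, against 45.8, 53.0 and 59.3 CPM in AJ. Ppara fell by 0.45 ± 0.13 (log2, SE) in Cast (edgeR adjusted p = 0.00291), and this held in all 73 alternatives, at -0.57 to -0.38. In NZO the difference was -0.26 ± 0.12 (edgeR adjusted p = 0.0863), and without WSB_1, where Ppara was at 8.23 CPM, it was -0.28 (edgeR adjusted p = 9.38e-04). Leaving out WSB_1 also brought Ppara past the threshold in AJ (0.25, edgeR adjusted p = 0.00201), B6 (0.18, edgeR adjusted p = 0.0297) and WSB (0.19 ± 0.07, edgeR adjusted p = 0.0268). In Cast Ppara was thus lower and Ppard higher. Per kb of exon Ppara remained the larger there, at 8.9 against 4.8 CPM per kb, beside 11.8 against 3.45 over all strains.

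The Ppara window (RefSeq, GRCm38.p6, chr15:85735526-85735825, plus strand) is shown beside that of Esrrg. The capitals mark GCGC, any base, then TGCGC, the palindrome bound by the nuclear respiratory factor NRF-1.
Ppara: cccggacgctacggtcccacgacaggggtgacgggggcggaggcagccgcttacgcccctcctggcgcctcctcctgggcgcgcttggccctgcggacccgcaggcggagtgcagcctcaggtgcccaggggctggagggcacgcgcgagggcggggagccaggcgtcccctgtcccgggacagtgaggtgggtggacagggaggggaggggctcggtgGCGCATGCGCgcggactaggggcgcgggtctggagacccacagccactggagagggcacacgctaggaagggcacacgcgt
The match starts at position -31, and 4.6% of the 32851 windows held this motif on either strand.

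Both RXR genes encode partners of the PPARs, but their strain patterns differed. Rxrg, which encodes the RXR gamma of skeletal and heart muscle, was low in Cast (14.97, 23.6 and 28.7 CPM) and in PWK (22.2, 26.0 and 28.1 CPM). It was high in 129 (42.1, 45.8 and 48.7 CPM) and NZO (35.4, 44.5 and 50.9 CPM). B6, AJ, NOD and WSB had medians of 37.3 to 42.4 CPM. Every Cast and PWK library was below every library of the remaining 6 strains, apart from WSB_1 at 24.0 CPM. The step from WSB to PWK was the only one between neighbouring strains to exceed the larger SD.

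Rxrg fell by 0.72 ± 0.07 (log2, SE) in Cast, at 23.0 ± 4.36 CPM (SD, n = 7) against 38.6 CPM for the mean of the other strains (edgeR adjusted p = 1.49e-13). In PWK it fell by 0.57 ± 0.07, at 25.3 ± 2.00 CPM (SD, n = 8; edgeR adjusted p = 4.37e-11). Both calls held in all alternatives. It rose in 129 by 0.41 ± 0.06 (edgeR adjusted p = 1.59e-07), in NZO by 0.35 ± 0.06 (edgeR adjusted p = 2.57e-06), in B6 by 0.27 ± 0.06 (edgeR adjusted p = 3.56e-04) and in AJ by 0.16 ± 0.06 (edgeR adjusted p = 0.0327). Against B6 alone the differences were 0.12 in 129 (edgeR adjusted p = 0.353), 0.07 in NZO (edgeR adjusted p = 0.559) and -0.10 in AJ (edgeR adjusted p = 0.42). The call in AJ was lost without AJ_4, AJ_5, AJ_7 or AJ_8, and with Cast left out of the other strains (edgeR adjusted p = 0.503).

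Rxrg is shown with its most upstream window (RefSeq, GRCm38.p6, chr1:167598112-167598411, plus strand), which held none of the motifs searched. Besides those named, these were the ERR element TNAAGGTCA, the direct repeat of AGGTCA with 1 base between the copies, bound by PPAR and RXR, the E-box CACGTG and the GABPA element ACCGGAAG, on both strands.
Rxrg: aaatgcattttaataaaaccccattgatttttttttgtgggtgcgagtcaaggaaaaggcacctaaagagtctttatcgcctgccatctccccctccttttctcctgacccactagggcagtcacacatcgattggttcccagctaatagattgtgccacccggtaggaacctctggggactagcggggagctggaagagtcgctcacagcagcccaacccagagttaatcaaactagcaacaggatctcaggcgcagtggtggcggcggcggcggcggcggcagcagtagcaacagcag
The ERR element was in 1.28%, the direct repeat in 0.04% and the E-box in 7.15% of the 32851 windows, and none was in the 15 windows of the 9 regulators searched.

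Rxra, at chr2:27676440-27762957 (GRCm38, plus strand), encodes RXR alpha, the broadly expressed form. Its strain means were 68.3 to 77.3 CPM, no strain differed from the others (edgeR adjusted p = 0.125 to 0.89), and no neighbours in the order of strains differed beyond their spread. Single libraries stood off on both sides, with Cast_1 at 104 CPM and WSB_1 at 43.1 CPM. Without WSB_1 Rxra was called lower in AJ (-0.11, edgeR adjusted p = 0.0334) and in NZO (-0.10, edgeR adjusted p = 0.0344).

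Tfam was highest in PWK, where the libraries had 41.1, 42.8 and 45.0 CPM, against medians of 34.9 to 40.7 CPM in the other 7 strains. The PWK libraries overlapped those of AJ, 129, NZO, Cast and WSB, and lay above all those of B6 and NOD. Tfam rose by 0.21 ± 0.06 (log2, SE) in PWK (edgeR adjusted p = 0.00418), which held in all 74 alternatives, at 0.18 to 0.24. Without WSB_1 (17.1 CPM) Tfam was also called lower in NOD (-0.15, edgeR adjusted p = 0.0036). The RNAs of the mitochondrial genome did not follow Tfam by strain. They took 17.8 ± 1.12% of the counts in PWK (SD, n = 8), the lowest share of any strain, against 29.2 ± 1.498% in B6, the highest (SD, n = 8), and 19.5 to 27.0% in the other 6. Copies of mitochondrial sequence in the nuclear genome and sequence differences between strains can affect these counts and were not examined.

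The Tfam window (RefSeq, GRCm38.p6, chr10:71237995-71238294, minus strand) is given for comparison with that of Rxrg, since their RNAs moved together. The capitals mark ACCGGAAG, the element of GABPA, also called nuclear respiratory factor 2 alpha.
Tfam: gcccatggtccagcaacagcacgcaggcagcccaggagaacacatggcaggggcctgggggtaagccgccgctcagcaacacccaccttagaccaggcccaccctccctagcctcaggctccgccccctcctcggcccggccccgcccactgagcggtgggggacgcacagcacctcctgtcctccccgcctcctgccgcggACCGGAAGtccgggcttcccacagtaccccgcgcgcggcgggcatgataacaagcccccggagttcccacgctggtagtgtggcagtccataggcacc
The match starts at position -48, and 2.3% of the 32851 windows held the element on either strand.

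Among libraries of the same strain, some regulators moved together. For each gene the deviation of log2 CPM from its strain mean was taken, and 75 relations between regulators, and between regulators and the mean of ERR targets, PPAR targets or mitochondrially encoded genes, were tested by permuting libraries within strains. Of the 75, 13 passed an adjusted p of 0.05 by Pearson's r, and 10 did so without WSB_1, not all of them among the 13. Esrrb with Esrrg, Ppara and Rxra, Ppard with Rxra, and Rxra with both target lists passed only with WSB_1. Ppara with the PPAR targets and Ppargc1a with the ERR targets passed only without it. So did Esrrg with the mitochondrially encoded genes (r = 0.37, permutation adjusted p = 0.0408). Tfam and Rxrg were related at Pearson's r = 0.74 (permutation p = 2e-05, adjusted 3.75e-04) and Spearman's rho = 0.56 (permutation p = 2e-05, adjusted 5e-04), with a positive relation in 8 of 8 strains. Without the 2 libraries farthest from the median of Tfam, r was 0.59, and without WSB_1 alone it was 0.67 (permutation adjusted p = 5e-04). The pair passed with and without WSB_1.

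Tfam and Rxrg both followed the mean of 24 ERR targets, a list mostly of respiratory chain and citrate cycle genes. The list also held Mfn1, Mfn2, Sod2, Sirt3, Phyh, Ckmt2 and Slc25a4. For Rxrg, r was 0.73 and rho 0.67 (permutation p = 1e-05 for both, the smallest that 100000 resamples can give; adjusted 2.5e-04 and 3.75e-04), and r was 0.63 without WSB_1. The relation was positive in 7 of 8 strains, and without the 2 farthest libraries r was 0.73. For Tfam, r was 0.79 and rho 0.62 (permutation p = 1e-05 for both, adjusted 2.5e-04 and 3.75e-04), with 0.64 without the 2 farthest libraries and 0.56 without WSB_1. In the 62 libraries without WSB_1 all 24 targets had a positive r with Rxrg (median 0.49) and with Tfam (median 0.45). Esrra was also related to the list mean, at r = 0.62 (permutation adjusted p = 0.00139). Without WSB_1 its r was 0.39 and rho 0.37 (permutation adjusted p = 0.017 and 0.0545). For Ppargc1a r was 0.19 over 63 libraries (permutation adjusted p = 0.312). Without WSB_1 its r was -0.35 and rho -0.29 (permutation adjusted p = 0.0481 and 0.175). Esrra was related to Rxrg at r = 0.65 and rho = 0.54 (permutation p = 3e-05 and 5e-05, adjusted 3.75e-04 and 7.5e-04), in 8 of 8 strains, with 0.54 without the 2 farthest libraries and 0.53 without WSB_1. These values share the library, so its RNA quality and makeup enter both sides of each relation; their part was not tested.

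Esrrg and Ppara showed the highest r of all pairs, 0.91, with rho = 0.61 (permutation p = 1e-05 and 3e-05, adjusted 2.5e-04 and 5.62e-04). Much of this value came from WSB_1, where both were lowest. Without it r was 0.56 and rho 0.45 (permutation adjusted p = 0.00105 and 0.00975), positive in 6 of 8 strains. The relations of Esrrb with Esrrg and with Ppara, at r = 0.87 and 0.84 (permutation p = 0.00364 and 0.0016, adjusted 0.0248 and 0.0141; rho = 0.48 and 0.46, permutation p = 0.00399 and 0.00352, adjusted 0.0299 and 0.0293), did not pass without WSB_1. Esrrb and Ppard stayed related, at r = 0.59 and rho = 0.46 over 63 libraries (permutation p = 3e-05 and 9e-05, adjusted 3.75e-04 and 0.00112) and r = 0.41 over 62 (permutation adjusted p = 0.00412), in 8 of 8 strains.

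Ppara and its target list ran in opposite directions once WSB_1 was left out. Over all 63 libraries r was 0.23 and rho -0.24 (permutation p = 0.164 and 0.0687, adjusted 0.246 and 0.245). Without WSB_1 r was -0.41 and rho -0.44 (permutation p = 0.001 and 4.2e-04, adjusted 0.0107 and 0.0063), and r was -0.38 without the 2 libraries farthest from the median of Ppara. The mean log2 CPM of the list was 7.26 to 7.41 in NZO_1 to NZO_4 and 7.96 to 8.30 in NZO_5 to NZO_8. Ppara was at 37.7 to 45.4 CPM in the former and 34.1 to 36.3 CPM in the latter. The part of this split within NZO in the relation was not tested. The relation was negative in 8 of 8 strains, and each of the 25 targets had a negative r with Ppara, from -0.50 for Ucp3 to -0.07 for Slc27a1. Pdk4, the kinase that shifts the heart from glucose to fat, had r = -0.31. These single targets were chosen after their values were seen and carry no test.

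**Figure D4:**
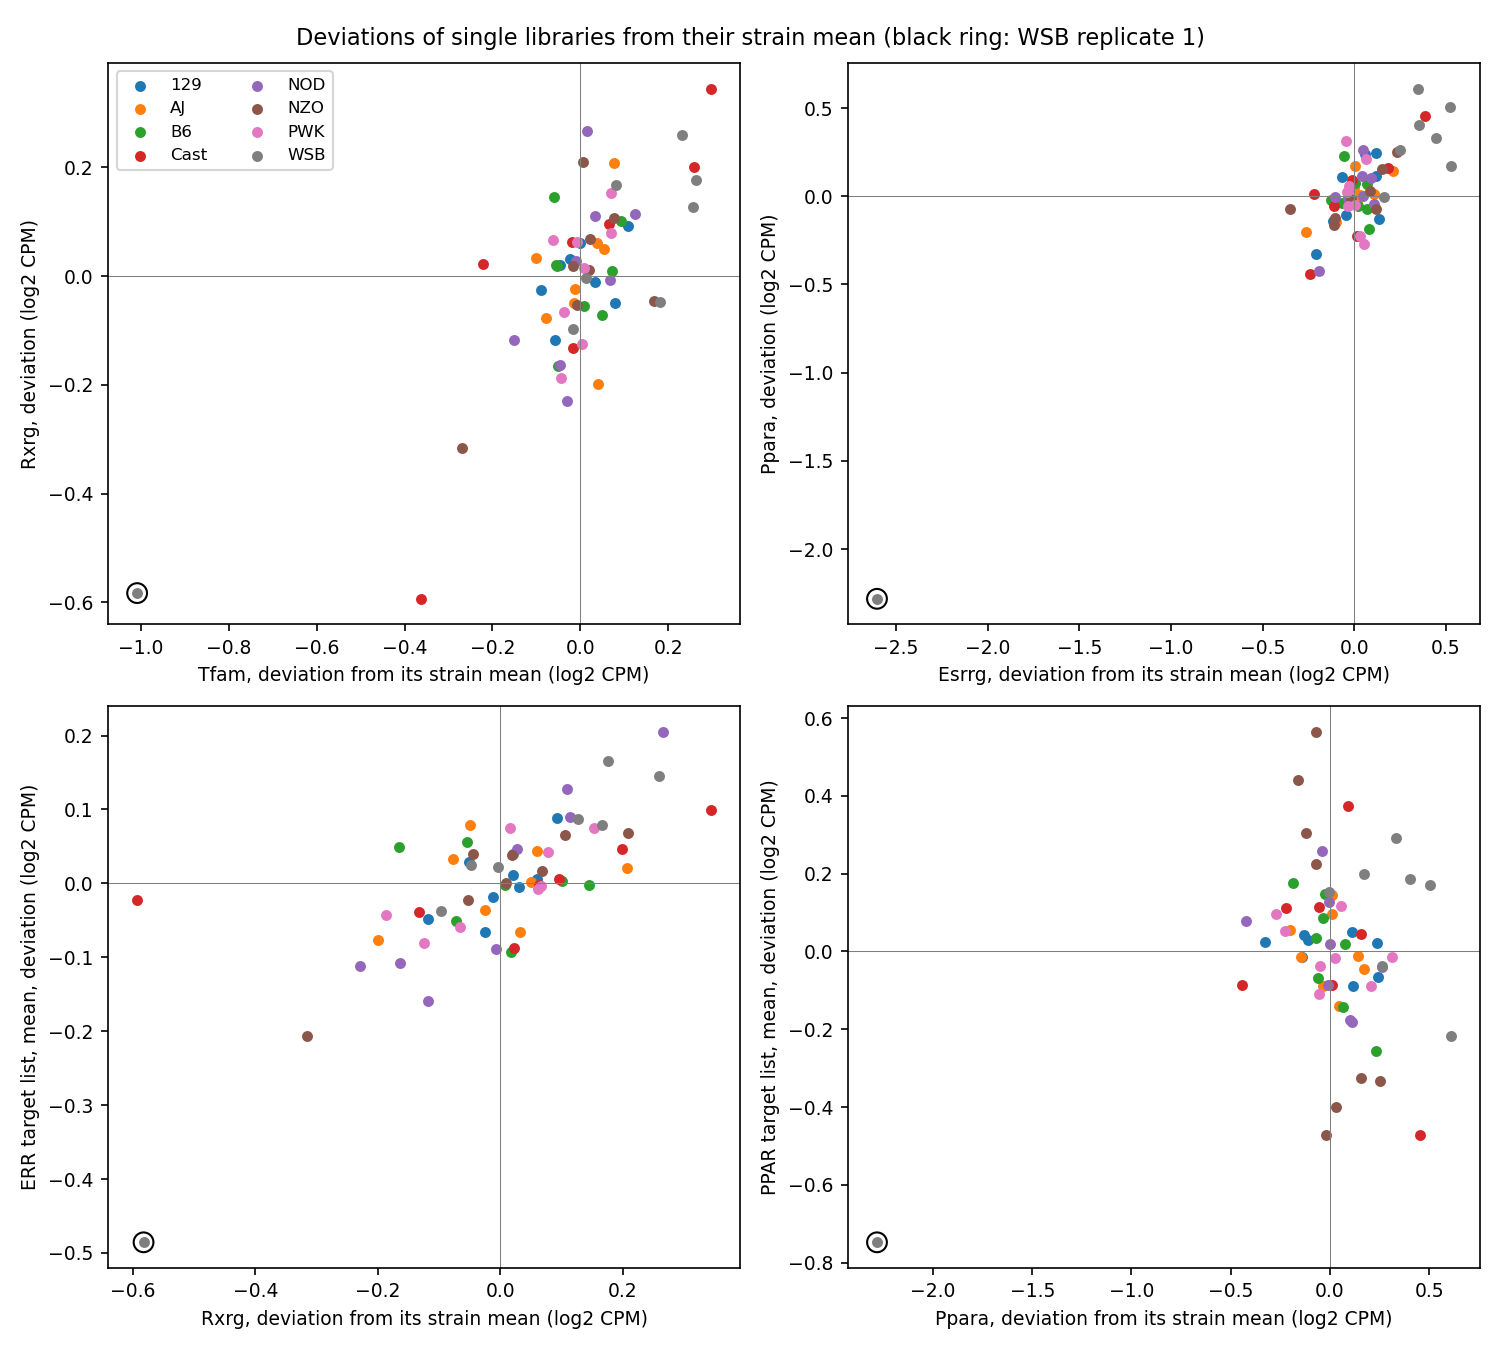
Deviation of single libraries from their strain mean (log2 CPM, both axes) for Tfam and Rxrg, Esrrg and Ppara, Rxrg and the ERR target mean, and Ppara and the PPAR target mean, coloured by strain, with WSB_1 ringed. Without WSB_1 the correlations are 0.67, 0.56, 0.63 and -0.41, and WSB_1 lies far from the other 62 points along the axes of Esrrg and Ppara.

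The network around the regulators was described with 4 lists of known partners and targets. Of 25 PPAR targets, 21 differed over all strains, as did 17 of 24 ERR targets, 18 of 19 genes for the maintenance and expression of mitochondrial DNA, and 21 of 24 coregulators and partners, all beside the 90.3% of all genes. In each strain the median log2 difference of all tested genes lay between -0.01 and 0.02. Without WSB_1 the shares of all genes higher and lower were 33.4% and 31% in Cast and 29.9% and 28.9% in PWK. They were 25.3% and 21.7% in NZO, 24.2% and 20.9% in AJ, and 23.4% and 20.1% in WSB. In 129 they were 20.4% and 16.6%, in B6 20.2% and 17.2%, and in NOD 22.6% and 17.3%. Counts given below without WSB_1 stand beside these shares.

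Of 25 PPAR targets 11 were higher and 2 lower in NZO (median log2 difference 0.17), beside 22.5% and 18.6% of all genes. The NZO libraries fell into separate levels: the mean log2 CPM of the list was 7.26 to 7.41 in NZO_1 to NZO_4 and 7.96 to 8.30 in NZO_5 to NZO_8, against strain means of 7.48 to 7.75 in the other 7 strains. The count in NZO thus comes from libraries on both sides of the other strains' means. Pdk4 rose by 0.70 ± 0.27 (1877 against 1206 CPM for the mean of the other strains, edgeR adjusted p = 0.0332). It did not pass in limma on the deposited log2 values (adjusted p = 0.145). In Cast 4 were higher and 9 lower (median -0.18), beside 30.9% and 29.3% of all genes, with Ucp2, a mitochondrial carrier, up by 1.49 ± 0.07 (edgeR adjusted p = 1.15e-26) and Plin2, a lipid droplet coat protein, up by 0.82 ± 0.07. The fatty acid dehydrogenase Acadm fell there by 0.85 ± 0.09 (593 against 1076.5 CPM, edgeR adjusted p = 6.83e-12), and Fabp3, the fatty acid carrier of the heart, by 0.75 ± 0.10.

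In PWK 3 PPAR targets were higher and 9 lower (median -0.06), beside 27.4% and 26.8% of all genes. Ucp2 fell by 2.47 ± 0.10 to 15.03 CPM in PWK, against 87.7 CPM for the mean of the other strains (edgeR adjusted p = 1.34e-31), and every PWK library was below every other library. Pdk4 fell by 1.06 ± 0.31 in PWK (647 against 1382 CPM, edgeR adjusted p = 0.00339). In AJ 1 target was higher and 7 lower, beside 21.1% and 18.1% of all genes, led by Angptl4, an inhibitor of lipoprotein lipase, which fell by 1.33 ± 0.36 (9.43 against 25.4 CPM, edgeR adjusted p = 0.00233). Angptl4 rose in WSB by 1.23 ± 0.29 (44.5 against 20.4 CPM, edgeR adjusted p = 3.36e-04), where 6 targets were higher and 4 lower, beside 25.6% and 19.8% of all genes. Counts in 129, B6 and NOD were 4 higher and 2 lower, 2 and 1, and 4 and 1. Without WSB_1 they were 6 and 3 in 129, 6 and 1 in B6, 5 and 1 in NOD, and 8 and 4 in WSB.

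ERR targets were lower in PWK for 11 of 24 and higher for 4 (median -0.10), and lower in NZO for 6 and higher for 0 (median -0.09; edgeR, 0 higher also at an unadjusted p of 0.05). Of all genes 26.8% were lower in PWK and 18.6% in NZO, so the 6 of 24 in NZO is near the share of all genes. Without WSB_1 these counts were 16 lower and 5 higher in PWK, beside 28.9% and 29.9% of all genes, and 13 lower and 0 higher in NZO, beside 21.7% and 25.3%. Phyh, a peroxisomal hydroxylase, fell by 0.48 in PWK (edgeR adjusted p = 2.8e-10), and Uqcrc1, a core protein of complex III, by 0.31 (edgeR adjusted p = 6.9e-09). In NZO Cycs (cytochrome c) fell by 0.29 and Atp5b, the beta subunit of ATP synthase, by 0.23 (edgeR adjusted p = 4.2e-06). The mean that NZO was set against holds Cast, where Cycs had 672 CPM. Cycs had 243 CPM in NZO, within the 226 to 323 CPM of the strains other than Cast. Summed with its near-identical copy it had 849 CPM in NZO, within the 757 to 974 CPM of the other strains. In Cast 7 were higher and 3 lower (median 0.06), a share of higher genes near the 30.9% of all genes, with Cycs at 1.39 and the deacetylase Sirt3 up by 0.44 (edgeR adjusted p = 4.7e-09). In AJ, B6, NOD, 129 and WSB 2 to 5 of the 24 were higher and 2 to 3 lower. Without WSB_1 the counts were 9 higher and 3 lower in 129, 6 and 6 in AJ, 4 and 4 in NOD, 10 and 5 in Cast, and 7 and 2 in WSB.

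Both widest ERR targets depended on how reads were shared with a near-identical copy. Cycs alone had 672 CPM in Cast, against 226 to 323 CPM in the other strains. Summed with its copy Gm10053 it had 757 CPM in Cast, against 803 to 974 CPM in the others, so that Cast was no longer the highest but the lowest strain. Ndufb4, a subunit of complex I, was called higher in PWK by 1.28 (124 CPM, against 43.5 to 58.0 CPM in the other strains). Summed with Ndufb4c it had 124 CPM in PWK, within the 106 to 143 CPM of the others. Acot1, a thioesterase among the widest PPAR targets, had strain means that spanned 1.48 log2 units by itself and 0.81 together with Acot2. The values of these 3 genes are therefore uncertain. Summing also changed spans among genes that maintain and express mitochondrial DNA. The span went from 0.66 to 0.36 log2 units for Tfb2m with Gm1818, and from 0.64 to 0.39 for Twnk with Mrpl43. It went from 1.10 to 1.76 for Mterf1a with Mterf1b. This summing was added after the data were seen.

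Coregulators and partners were called higher in Cast for 12 of 24 and lower for 3 (median 0.15), beside 30.9% and 29.3% of all genes. Cited2, a CBP and p300 binding coactivator of PPAR, rose by 0.74 and Thrap3 by 0.44 (edgeR adjusted p = 6e-11 and 6.5e-13). Perm1, a muscle protein induced by PGC-1 and ERR, fell by 0.34 in Cast and Prkaa2, the catalytic alpha 2 subunit of AMP kinase, by 0.43, and neither call held without Cast_1, Cast_5 and Cast_6 (edgeR adjusted p = 0.286 and 0.15). In PWK 8 were higher and 4 lower (median 0.06), beside 27.4% and 26.8% of all genes, with the clock repressor Nr1d1 up by 0.51 and Nr0b2 up by 0.36. Nr1d1 had the widest span of the list, at 90.7 CPM in AJ and 33.6 CPM in WSB. It belongs to the daily clock. Of 12 other clock genes 11 differed among the strains, which is near the 90.3% of all tested genes. The labels give no time of day, so time of day at collection cannot be told apart from strain here. In AJ 3 partners were higher and 7 lower (median -0.07), in NZO 0 and 3, in WSB 3 and 4, in B6 2 and 3, in 129 2 and 2, and in NOD 2 and 1. Without WSB_1 they were 1 and 7 in NZO, 7 and 3 in WSB, 5 and 4 in B6, 3 and 4 in 129, 3 and 1 in NOD, and 4 and 9 in AJ, so that the balance in WSB and in B6 turned with this library.

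Genes that maintain and express mitochondrial DNA were called higher in Cast for 9 of 19 and lower for 4 (median 0.15), beside 30.9% and 29.3% of all genes. Mterf3, which represses transcription of the mitochondrial genome in mouse, rose by 0.74 (edgeR adjusted p = 1.1e-22), and Mterf2 fell by 0.86 (edgeR adjusted p = 2.2e-12). In NZO 2 were higher and 8 lower (median -0.12), beside 22.5% and 18.6% of all genes, with the exonuclease Mgme1 down by 0.62 (edgeR adjusted p = 1.3e-11). In PWK, where Tfam rose, 4 were higher and 6 lower (median -0.04), near the 27.4% and 26.8% of all genes. Tfb1m, an rRNA methyltransferase, rose there by 0.45, and Twnk, the mitochondrial helicase, fell by 0.39 (edgeR adjusted p = 7.9e-09). Top1mt, the mitochondrial topoisomerase, had the widest span of the list, at 8.40 CPM in WSB and 3.58 CPM in AJ. In AJ 6 were higher and 3 lower, in NOD 8 and 2, in WSB 6 and 5, in B6 3 and 2, and in 129 2 and 3. Without WSB_1 they were 6 and 5 in AJ, 8 and 3 in NOD, 6 and 4 in WSB, 3 and 3 in B6, and 3 and 3 in 129.

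**Figure D5:**
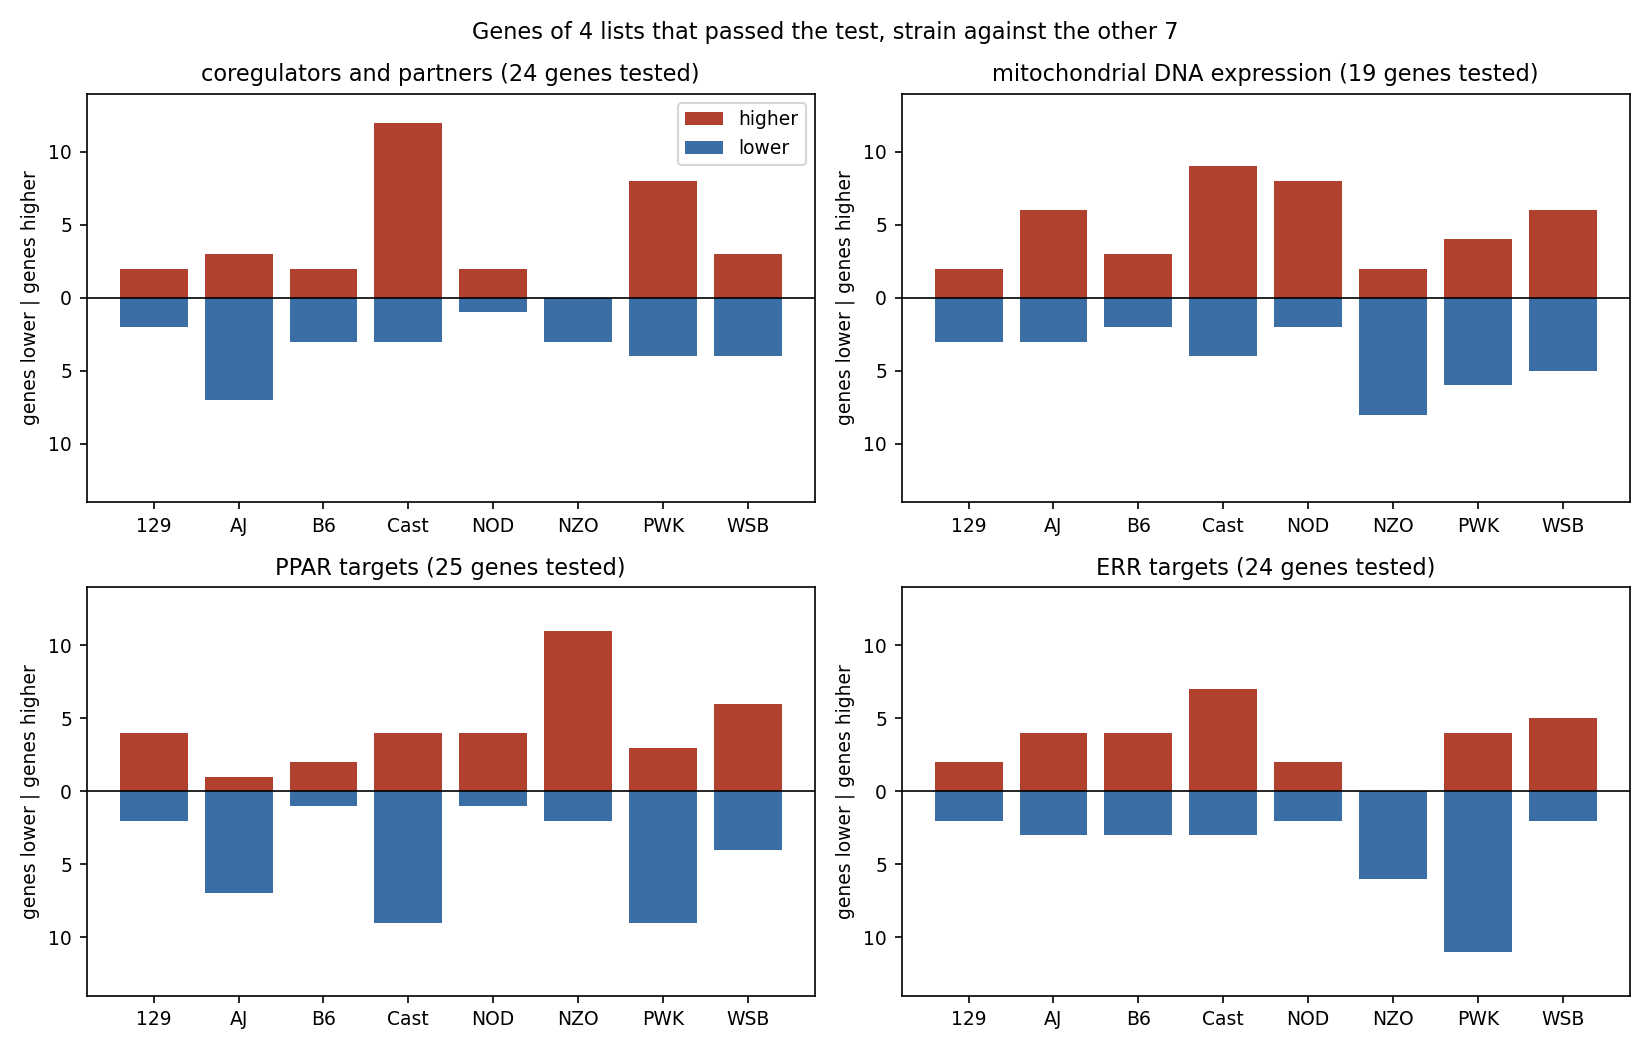
Number of genes of each list (y axis) that passed an adjusted p of 0.05 as higher (red, upward) or lower (blue, downward) in each strain against the other 7. The tallest upward bars are 12 partners in Cast and 11 PPAR targets in NZO, and the deepest downward bar is 11 ERR targets in PWK.

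Cell markers moved with some of these strains. All 6 fibroblast markers were lower in Cast and higher in NZO, with a summed level of 464 to 884 CPM in Cast and 1444 to 1881 CPM in NZO, against 870 to 1397 CPM in the other strains. Of 9 cardiomyocyte markers, 2 were higher and 4 lower in Cast, and 1 was higher and 4 lower in NZO. Of all genes 30.9% were higher and 29.3% lower in Cast, and 22.5% and 18.6% in NZO. Of 10 fat cell markers 6 were higher in PWK and 6 lower in WSB. Of all genes 27.4% were higher in PWK and 19.8% lower in WSB. Summed levels were 354 to 508 CPM in PWK, 375 to 525 CPM in WSB and 310 to 943 CPM in the others. Most of the sum was Plin4, which heart muscle also makes. All 5 skeletal muscle, 5 atrial, 6 endothelial and 6 macrophage markers differed over the strains, beside 90.3% of all tested genes. The part of these markers in the differences of the regulators was not tested. The reference genome is that of B6, and loss of reads to sequence variants of the other strains was not tested.

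Genes whose log2 CPM was most like that of each regulator were listed over the 63 libraries, by Pearson's r, as a description. For Rxrg these were Isca1 and Fam136a, both at r = 0.91 (0.93 and 0.91 without WSB_1). For Ppard they were Cyp2u1 (0.86) and Rapgef1 (0.81), and for Ppargc1b Tuba1b (0.76) and Gnb1 (0.75), with values within 0.02 of these without WSB_1. For Ppargc1a they were Gdpd1 (0.72) and Prosc (0.70), for Esrra Inpp5a (0.72) and St3gal3 (0.71), for Esrrb Crbn (0.90) and Prpf8 (0.87), and for Tfam Usp5 (0.89) and Cand2 (0.86). The likeness of Esrrg to Hipk3 (0.94) and Alg10b (0.94) dropped to 0.57 and 0.59 without WSB_1, and that of Ppara to Osbpl8 (0.87) and Kcnq1 (0.86) dropped to 0.66 and 0.73. For Rxra they were Rai2 (0.78) and Jmy (0.77), with 0.62 and 0.60 without WSB_1. Without it the values were 0.65 and 0.62 for Ppargc1a, 0.61 and 0.63 for Esrra, 0.83 and 0.76 for Esrrb, and 0.76 and 0.72 for Tfam.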

How the data were processed

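Polyadenylated RNA of frozen, pulverised hearts was sequenced, with 63 libraries and a median of 30.4 M counts. The authors deposited estimated counts per gene, normalised log2 values (variance-stabilised) and a gene annotation. The build was GRCm38 and DESeq2 was used, per the submitters' processing notes. No aligner or counter is named, and strand use is not given in the sources used here. Of the deposited estimated counts, 18.4% were not whole (tolerance 1e-06), and all were rounded.

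Genes with too few counts (edgeR's filterByExpr, minimum count 10) were left out, which kept 16425 of 19220. Counts were scaled by TMM and fitted with edgeR 4.0.16 (quasi-likelihood, 1 coefficient per strain, R 4.3.3). Each strain was compared with the unweighted mean of the other 7, and all 8 strains were compared by an F test. P-values were adjusted by Benjamini-Hochberg over all tested genes at a threshold of 0.05, and the SE of a fold change is its size over the root of F. CPM use TMM sizes, and log2 CPM a prior count of 2. The step was tested on simulated data. Relations used 100000 permutations within strains, with r and rho adjusted separately over 75 relations. Near-identical copies were found with minimap2 2.31. Promoter windows came from RefSeq, for 9 of the 10 regulators.

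The regulators, gene lists and tests were chosen with earlier results of these data known. The rule for named genes took the 10 regulators, in each list the 3 genes whose strain means spanned most and up to 2 per strain and direction, and the 2 genes most like each regulator; the text prints part of these. Alternatives used DESeq2 1.42.0 for size factors and tests, limma 3.58.1 on the deposited log2 values, other filters, library sizes without mitochondrial genes, B6 alone or no Cast among the other strains, a replicate block, and each library left out in turn.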

Additional observations from a re-analysis of the deposited data

Results flagged for a closer look

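Of 80 groups, 1 per regulator and strain, 14 held a library far from the others of its strain; chance alone gives about 1 in 20 groups. WSB_1 gave 9 of the 14, all low. It had 57.4 CPM of Ppargc1a (116 to 166 CPM in the other WSB libraries), 48.7 of Esrra (69.1 to 80.6), 9.56 of Esrrb (31.4 to 40.0) and 7.78 of Esrrg (53.4 to 68.7). It had 8.23 CPM of Ppara (40.2 to 61.5), 19.5 of Ppard (24.2 to 28.7), 17.1 of Tfam (34.1 to 41.4), 43.1 of Rxra (72.7 to 82.1) and 24.0 of Rxrg (33.7 to 43.1). Ppargc1b, at a log2 difference of -0.06 from the other WSB libraries, was not among them.

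Cast_1 was low for Ppargc1b, at 7.41 CPM against 14.3 to 23.1 CPM in the other Cast libraries, and high for Rxra, at 104 CPM against 65.9 to 76.1 CPM. NOD_8 was low for Ppargc1b, at 20 CPM against 25.6 to 31.5 CPM in the other NOD libraries, and for Ppara, at 35.9 CPM against 46.7 to 57.6 CPM. NZO_8 was low for Tfam, at 31.3 CPM against 37.3 to 42.3 CPM in the other NZO libraries. Cast_1 had a mean log2 level of skeletal muscle markers of 3.65, against 0.45 to 1.15 in the other Cast libraries. Their summed level, 1430 CPM, lay within the 1076 to 1642 CPM of the other Cast libraries. NZO_8 had 313 CPM of macrophage markers, against 116 to 146 CPM in the other NZO libraries. The part of these markers in the flagged values was not tested.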

How the results depend on the processing

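The number of regulators called moved without WSB_1 to 4 in 129, 7 in AJ, 3 in B6, 3 in NOD, 4 in NZO and 1 in WSB. The shares of all genes higher and lower were then 20.4% and 16.6% in 129, 24.2% and 20.9% in AJ, and 20.2% and 17.2% in B6. They were 22.6% and 17.3% in NOD, 25.3% and 21.7% in NZO, and 23.4% and 20.1% in WSB. Without AJ_2, AJ_7 and AJ_8 AJ had 0 calls (edgeR), and without Cast_1, Cast_5 and Cast_6 NOD had 2. The 0 calls in AJ came with fewer AJ libraries in the test. The AJ differences were then -0.21 for Esrrb and 0.15 for Rxrg, from -0.24 and 0.16. They were 0.17 for Ppargc1a and 0.18 for Ppargc1b, from 0.32 and 0.30. Shares of all genes per strain are not given for these settings or for those that follow. Against B6 alone there was 1 call in 129, 1 in AJ, 0 in NOD (edgeR) and 1 in WSB, and with Cast left out of the other strains 1 in AJ and 4 in NZO. Leaving out 1 library at a time gave 7 to 9 over all strains, 2 to 4 in 129, 2 to 7 in AJ, 1 to 3 in B6, 5 to 7 in Cast, 1 to 3 in NOD, 2 to 4 in NZO, 5 to 6 in PWK and 0 to 1 in WSB.

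Signs turned for Ppargc1a in Cast (-0.0376 without Cast_1, Cast_5 and Cast_6), and against B6 alone for Rxrg in AJ (-0.10) and WSB (-0.21). Among list genes Cox8b in WSB was at -0.0052 without WSB_1, and Cycs in WSB at 0.0378 with Cast left out. Against B6 alone Cycs was at 0.14 in 129, 0.18 in AJ, 0.11 in NOD, 0.10 in NZO and 0.21 in WSB, Ndufb4, Top1mt and Hdac3 in 129 at 0.12, 0.0741 and -0.0040, and Mterf2 and Tfb2m in NZO at -0.0466 and -0.0104. The causes were not tested. Of 120 calls on named list genes, DESeq2 kept 120.

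Libraries of different strains with the same replicate number were by median little more alike than others. Over 199 same-numbered pairs the median correlation of deviations was 0.05, against -0.0096 for pairs with other numbers, and 40 exceeded 0.1. Whether the numbers mark shared handling was not tested. With a replicate block 8 regulators were called over all strains, 5 in AJ and 6 in Cast, and 29 of 75 relations passed, against 13 without the block; 113 of 120 list calls were kept. For 14 of the 63 libraries the most alike library of another strain had the same number.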
